A study of Mus musculus with 14 samples.

Results

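The 42 genes described here carry out mitosis and the spindle checkpoint, from the activation of Cdk1 to the final cut between daughter cells. They were listed by name and role, with no threshold on measured values but with earlier results of these data known, and all 42 were found among the 55416 genes of the count table and among the 18430 genes with enough counts to be tested. The 14 RNA-seq libraries came from 3 mouse stem cell types of one hybrid strain (Mus molossinus X Mus musculus), each treated with the METTL3 inhibitor STM2457 (50 µM for 12 h) or with its solvent DMSO. Wild-type extraembryonic endoderm stem cells (XEN), which model the primitive endoderm, were grown in DMEM with serum and gave 3 libraries per arm. Wild-type trophoblast stem cells (TSC, labelled trophoectoderm stem cells), which model the precursors of the placenta, were grown in fibroblast-conditioned RPMI with serum, Fgf4 and sodium pyruvate and gave 2 libraries per arm. Epiblast stem cells (EpiSC), which model the postimplantation epiblast, carried the genotype XmolXmus-ΔTsix in both arms, were grown with serum replacement, Fgf2 and Activin A, and gave 2 libraries per arm. Cells were seeded the day before treatment, and each cell type is represented by a single named line. METTL3 is the catalytic subunit of the methyltransferase that places N6-methyladenosine (m6A) in messenger RNA, and the study concerned m6A in X-chromosome inactivation and dosage compensation. The labels do not say whether replicates came from separate cultures, so p-values measure the spread between these libraries, which may be technical.

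Cells enter mitosis when Cdk1, bound to A- and B-type cyclins, is switched on by Cdc25 phosphatases. Kinetochores then attach chromosomes to the spindle, and unattached kinetochores make the spindle checkpoint complex, which holds Cdc20 and so keeps the anaphase-promoting complex inactive. Once every chromosome is attached, Cdc20 lets that complex destroy securin and cyclin B, separase opens cohesin, and the central spindle guides cytokinesis. Transcripts of these genes accumulate in G2 and mitosis, so their level in a growing culture also follows the share of cells in those phases. In bulk RNA, fewer cells in mitosis and less transcript per cell cannot be told apart. Many of their promoters hold CCAAT boxes, bound by NF-Y, and cell cycle homology regions, bound by the DREAM and MMB complexes.

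The promoters of 6 members are printed because the treatment results turn on these genes: Cdc20, Spc25, Ndc80, Prc1 and Plk1 were called lower in at least 1 cell line, and Birc5 was the member that moved the other way. Each line gives the 150 bases before the RefSeq start site (GRCm38.p6), 5′ to 3′ on the gene's own strand. Prc1 had 2 promoter windows in the RefSeq table, and only the first listed is used here. Capitals mark CCAAT and the core of the cell cycle homology region (TTTGAA or TTCGAA), each searched on both strands. The stretches are Cdc20 chr4:118437344-118437493 (minus strand), Spc25 chr2:69206214-69206363 (minus strand), Ndc80 chr17:71526858-71527007 (minus strand), Prc1 chr7:80294301-80294450 (plus strand), Plk1 chr7:122159285-122159434 (plus strand) and Birc5 chr11:117849087-117849236 (plus strand).
Cdc20: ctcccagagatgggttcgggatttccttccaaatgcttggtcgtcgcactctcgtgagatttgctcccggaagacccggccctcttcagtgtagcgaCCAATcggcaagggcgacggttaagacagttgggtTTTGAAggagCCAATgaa
Spc25: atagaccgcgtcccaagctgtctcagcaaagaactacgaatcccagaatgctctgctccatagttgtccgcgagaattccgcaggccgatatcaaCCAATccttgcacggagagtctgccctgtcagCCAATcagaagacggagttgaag
Ndc80: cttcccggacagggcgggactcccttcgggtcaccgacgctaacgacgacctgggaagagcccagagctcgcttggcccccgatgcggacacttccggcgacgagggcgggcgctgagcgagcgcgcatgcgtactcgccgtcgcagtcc
Prc1: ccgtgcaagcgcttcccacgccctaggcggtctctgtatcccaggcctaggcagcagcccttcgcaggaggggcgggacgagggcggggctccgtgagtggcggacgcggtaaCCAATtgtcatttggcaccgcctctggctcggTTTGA
Plk1: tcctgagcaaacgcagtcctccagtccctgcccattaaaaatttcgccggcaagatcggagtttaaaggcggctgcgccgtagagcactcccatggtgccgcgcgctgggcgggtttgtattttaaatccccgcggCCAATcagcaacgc
Birc5: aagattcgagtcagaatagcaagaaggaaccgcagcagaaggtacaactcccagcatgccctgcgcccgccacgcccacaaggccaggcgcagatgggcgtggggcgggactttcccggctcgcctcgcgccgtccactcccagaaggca
In Spc25, Ndc80 and Plk1 a homology core lay after the start site and in Prc1 it spanned the start, and it is shown with its surrounding 20 bases: Spc25 chr2:69206177-69206196 (minus strand), Ndc80 chr17:71526816-71526835 (minus strand), Prc1 chr7:80294439-80294458 (plus strand) and Plk1 chr7:122159458-122159477 (plus strand).
Spc25 site: tggagagTTTGAAattgaaa
Ndc80 site: tttaaaaTTCAAAccgcctt
Prc1 site: ggctcggTTTGAAttccgcg
Plk1 site: cgccgcgTTTGAAttcgggg

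Within 250 bases before and 50 after the start site, 35 of the 42 members had a promoter in the RefSeq table. Bub3, Prc1, Ect2 and Cep55 had 2 windows each, and for every gene only the first listed window was searched. Ccna2, Cdc25c, Aurkb, Incenp, Spc24, Tpx2 and Kif20a had no matched promoter. A homology core was present in 27 of the 35 (77.1%), against 13.5% of the 11866 tested genes with a promoter. CCAAT was present in 26 (74.3%), against 38.9%, and both were present in 23 (65.7%), against 5.78%. An E2F sequence (TTTCGCGC or TTTGGCGC) was present in 2 members (5.71%), against 1.47%. In Cdca8 a CCAAT match and a homology match shared a base. Cdc20 held CCAAT matches 53 and 8 bases before the start and a homology core 18 bases before it, and Spc25 held CCAAT matches 55 and 23 bases before it. The Birc5 window held none of these letters. A match is a run of letters and not a measured binding site, and promoter sequence was compared with no treatment value by a test. Of the 14 members called lower on the mean STM2457 effect described below, 12 had a promoter and 10 of these a homology core. Of the other 28 members, 23 had a promoter and 17 of these a core.

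**Figure D1:**
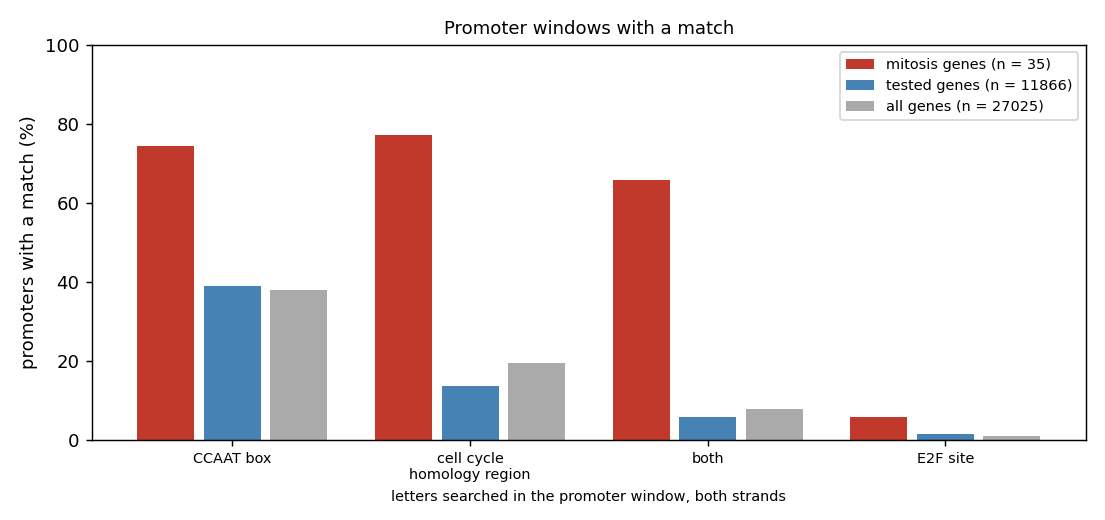
Share of promoters (vertical axis, %) that hold CCAAT, a homology core, both, or an E2F sequence, as bars for the 35 members with a promoter, the 11866 tested genes and all 27025 genes of the table with one. The members' bars stand at 74.3, 77.1, 65.7 and 5.71%, each above the bars of the other genes.

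XEN libraries held 6826500 to 10024600 counts, TSC libraries 17909900 to 20354200 and EpiSC libraries 18640100 to 21097400, and member counts ran from 105 (Cdc25b, XEN DMSO replicate 2) to 20877 (Top2a, TSC DMSO replicate 2). XEN libraries differed from the rest in composition: mitochondrial ribosomal RNA took 12.0 to 16.0% of counts, against 0.0366 to 0.0505% in the other lines, and replication-dependent histones took 0.436 to 0.654%, against at most 0.00629%. The labels followed their markers: XEN markers summed to 33565 to 43037 CPM (counts scaled by library total) in XEN and at most 189 elsewhere, TSC markers to 1569 to 1656 CPM in TSC and at most 164 elsewhere, and EpiSC markers to 878 to 1106 CPM in EpiSC and at most 288 elsewhere. Fibroblast markers summed to at most 60.8 CPM in any library. Of the differentiated trophoblast markers, Hand1 made up nearly all of the 1249 to 1362 CPM in TSC, and Prl3d1, Prl3b1, Prl4a1, Tpbpa, Gcm1 and Synb were at or near 0.

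In each line more members had lower than higher values with STM2457, by small folds. On the mean effect over the 3 lines, 14 members fell and 1 rose, at a Benjamini-Hochberg adjusted p under 0.05 in edgeR's quasi-likelihood test over all tested genes. Among all genes tested, 5.62% were called lower and 7.78% higher on that effect. The members' median log2 fold change was −0.13, beside −0.003 over all genes. Spc25, Cdc20 and Ndc80 fell most, and Birc5 rose. In XEN 3 members were called lower (Ndc80, Spc25 and Prc1), with 1.07% of all genes called lower and 3.07% higher. In TSC 2 were called lower (Spc25 and Ndc80), with 0.130% of genes lower and 0.836% higher. In EpiSC 3 were called lower (Cdc20, Prc1 and Plk1), with 0.402% of genes lower and 1.28% higher. Unless another fit is named, calls are those of edgeR's fit over all libraries without a replicate block. That fit does not use the pairing of XEN libraries by replicate number, described below. A block in XEN only was added after the data were seen. It called 9 members in XEN (15.8% of genes) and 25 on the mean effect (28.7%). In the fit without a block no member was called higher in a single line. At an unadjusted p under 0.05 the counts were 1 in XEN, 0 in TSC and 2 in EpiSC, without a share of all genes to set beside them. DESeq2 called 0, 0 and 1 higher (7.02%, 5.07% and 5.76% of the genes given an adjusted p). With replicate numbers as a block, 1 was called higher in XEN (7.95% of genes) and 2 in EpiSC (7.98%). With the EpiSC libraries alone, 3 were called higher there (15.2%). The median member fold change was −0.09 in XEN, −0.14 in TSC and −0.16 in EpiSC, beside 0.00 over all genes in each.

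The direction was shared more widely than the calls. The fold change was negative in all 3 lines for 23 of 42 members (54.8%), against 21.8% of all genes, and positive in all 3 for 1 member, Birc5 (2.38%, against 21.4%). Every STM2457 library lay below every DMSO library for 9 members in XEN (7.03% of genes), 32 in TSC (27.8%) and 30 in EpiSC (26.5%). Summed over the 42 genes, the DMSO libraries of XEN held 4570, 4353 and 4525 CPM and the STM2457 libraries 4313, 3980 and 4319.9 CPM. TSC held 7070 and 7277 CPM with DMSO against 6469 and 6265 CPM with STM2457, and EpiSC 6295 and 6050.2 CPM against 5502 and 5521 CPM. The STM2457 sums lay below the DMSO sums in all 3 lines without overlap. These levels depend on the scaling to the bulk of genes (TMM). When libraries were scaled to ribosomal protein genes instead, the median of all genes moved to −0.04 in XEN, 0.11 in TSC and 0.12 in EpiSC, and the members' median relative to it was −0.10, −0.11 and −0.14. On that scale 34 members had a negative fold in XEN (29 by TMM), 23 in TSC (38 by TMM) and 26 in EpiSC (34 by TMM), and no member was called in a single line.

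**Figure D2:**
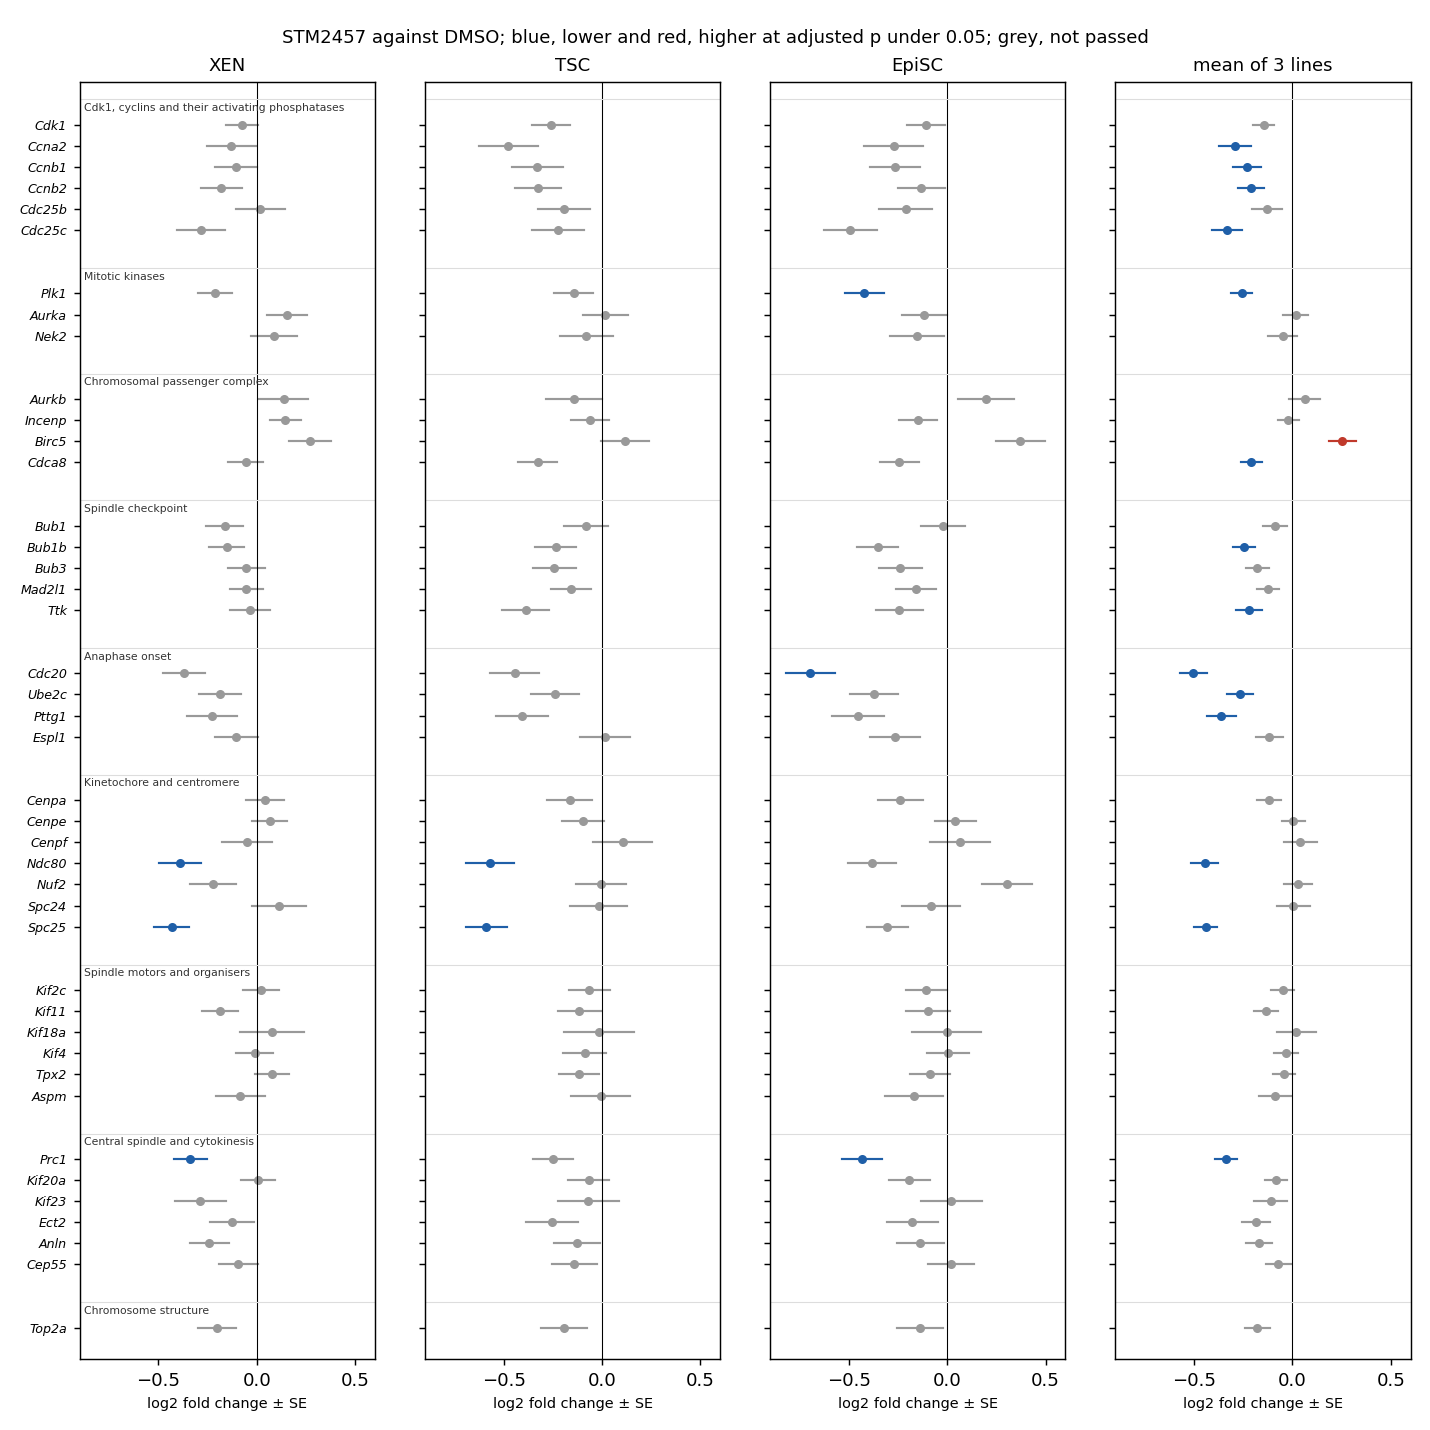
Log2 fold change of STM2457 against DMSO (horizontal axis) for each of the 42 members, by role, in XEN, TSC, EpiSC and on the mean; bars are ± SE, blue points were called lower, red higher and grey neither. Of the 42 members, 23 lie below 0 in all 3 lines and Birc5 lies above 0 in all 3.

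Of the 6 genes of Cdk1, its cyclins and its activating phosphatases, 4 fell on the mean effect and none rose. The edgeR fit over all libraries without a replicate block called none of them in a single line. DESeq2 called Ccna2, Ccnb2 and Cdk1 lower in TSC and Cdc25c lower in EpiSC. Cdc25c, a phosphatase that activates Cdk1, stood at 28.8, 29.8 and 32.2 with DMSO against 28.7, 20.4 and 25.4 with STM2457 in XEN, at 44.2 and 43.4 against 36.0 and 39.1 in TSC, and at 41.2 and 42.4 against 29.3 and 30.1 in EpiSC (CPM). Its STM2457 libraries lay below its DMSO libraries in every line, though in XEN the first library of each arm nearly met. The mean log2 fold change was −0.33 ± 0.075 (adjusted p = 0.00711). Ccna2 (cyclin A2), which acts from S phase into early mitosis, stood at 288, 194 and 230.1 with DMSO against 246, 195 and 210.4 with STM2457 in XEN, at 313 and 315 against 233 and 219 in TSC, and at 238 and 231 against 195 and 193 in EpiSC (CPM). The arms were apart in TSC and EpiSC and overlapped in XEN. Its mean change was −0.29 ± 0.0813 (adjusted p = 0.024).

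The B-type cyclins, which keep Cdk1 active until anaphase, gave small changes of the same direction. Ccnb1 stood at 196, 158 and 161 with DMSO against 184, 147 and 147 with STM2457 in XEN, at 240.2 and 254 against 196 and 198 in TSC, and at 241 and 239 against 206 and 193 in EpiSC (CPM). Ccnb2 stood at 54.0, 53.8 and 47.5 with DMSO against 45.5, 51.2 and 40.1 with STM2457 in XEN, at 153 and 166 against 129 and 125 in TSC, and at 98.4 and 92.6 against 89.4 and 85.0 in EpiSC (CPM). For both, the arms were apart in TSC and EpiSC and overlapped in XEN. The mean change was −0.23 ± 0.0705 (adjusted p = 0.0371) for Ccnb1 and −0.21 ± 0.065 (adjusted p = 0.0393) for Ccnb2. Cdk1 itself had a mean change of −0.15 ± 0.0539 (adjusted p = 0.0853), and the phosphatase Cdc25b one of −0.13 ± 0.0759 (adjusted p = 0.321). The annotation names processed copies of Ccnb1, Ccnb2 and Kif4, so the split of reads between these genes and their copies is uncertain.

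Of the mitotic kinases, Plk1 fell, and Aurka and Nek2 were not called. Plk1, which drives mitotic entry, centrosome maturation and cytokinesis, stood at 51.5, 47.8 and 51.7 with DMSO against 40.4, 45.2 and 44.9 with STM2457 in XEN, at 162 and 158 against 145 and 144 in TSC, and at 165 and 159 against 122 and 119.6 in EpiSC (CPM). Every STM2457 library was below every DMSO library in each line, with the widest gap in EpiSC. The log2 fold change was −0.42 ± 0.0991 (adjusted p = 0.0397) in EpiSC, −0.21 ± 0.0884 (adjusted p = 0.216) in XEN and −0.14 ± 0.0988 (adjusted p = 0.582) in TSC, and −0.26 ± 0.0552 (adjusted p = 0.00504) on the mean. Aurka, the kinase of the spindle poles, had a mean change of 0.02 ± 0.0634 and Nek2, a kinase of centrosome separation, −0.05 ± 0.0741 (adjusted p = 0.989 and 0.788).

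The chromosomal passenger complex, which corrects faulty attachments and then directs cytokinesis, was the one role that held both a called rise and a called fall on the mean effect. Its subunits are the kinase Aurkb, the scaffold Incenp and the targeting subunits Birc5 (survivin) and Cdca8 (borealin). Birc5 stood at 92.9, 80.0 and 109 with DMSO against 114, 107 and 119 with STM2457 in XEN, at 182 and 199 against 208 and 205 in TSC, and at 99.7 and 94.2 against 127 and 123 in EpiSC (CPM). Its STM2457 libraries lay above its DMSO libraries in TSC and EpiSC, and in XEN replicate 2 of STM2457 lay below replicate 3 of DMSO. The change was 0.27 ± 0.105 (adjusted p = 0.18) in XEN, 0.12 ± 0.123 (adjusted p = 0.754) in TSC, 0.37 ± 0.124 (adjusted p = 0.151) in EpiSC and 0.25 ± 0.068 (adjusted p = 0.0204) on the mean. Cdca8 stood at 48.2, 44.5 and 48.7 with DMSO against 45.2, 46.3 and 44.5 with STM2457 in XEN, at 131 and 143 against 110.2 and 108 in TSC, and at 119 and 117 against 101 and 97.7 in EpiSC (CPM). Its arms were apart in TSC and EpiSC and overlapped in XEN, and its mean change was −0.21 ± 0.0547 (adjusted p = 0.0174). The counts of Birc5 divided by those of Cdca8 in the same library do not depend on the scaling. In XEN that ratio ran from 1.80 to 2.23 with DMSO and from 2.30 to 2.68 with STM2457. In TSC it ran from 1.39 to 1.40 and from 1.88 to 1.90, and in EpiSC it was 0.807 and 0.839 with DMSO and 1.26 in both STM2457 libraries. The ratio was higher in every STM2457 library than in every DMSO library of its line. The pair, the called rise and the called fall of the complex, was chosen after the values were seen, so no test was made. Birc5 over Incenp and Birc5 over Aurkb were higher without overlap in TSC and EpiSC, but their arms overlapped in XEN. In XEN Birc5 over Incenp ran from 0.431 to 0.558 with DMSO and from 0.509 to 0.570 with STM2457. Aurkb had values of 0.14, −0.14 and 0.20 in XEN, TSC and EpiSC and Incenp 0.15, −0.06 and −0.15, with neither called.

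Of the 5 spindle checkpoint genes, 2 fell on the mean effect. Bub1b (BubR1), a part of the inhibitory complex that holds Cdc20, stood at 78.2, 79.8 and 85.9 with DMSO against 66.9, 77.2 and 75.4 with STM2457 in XEN, at 199.9 and 203 against 177 and 165 in TSC, and at 147 and 141 against 112 and 114 in EpiSC (CPM). Every STM2457 library was below every DMSO library of its line. Its change was largest in EpiSC at −0.35 ± 0.104 (adjusted p = 0.0997), short of the threshold, and −0.25 ± 0.0572 (adjusted p = 0.00836) on the mean. Ttk (Mps1), the kinase that starts checkpoint signalling at kinetochores, stood at 52.2, 53.6 and 59.2 with DMSO against 57.0, 46.6 and 57.5 with STM2457 in XEN, at 71.1 and 71.7 against 53.5 and 55.6 in TSC, and at 71.6 and 64.0 against 56.8 and 57.8 in EpiSC (CPM). The arms were apart in TSC and EpiSC and overlapped in XEN, and the mean change was −0.22 ± 0.0655 (adjusted p = 0.0329). Bub3, Mad2l1 and Bub1, the other checkpoint components, had mean changes of −0.18, −0.12 and −0.09 and were not called by edgeR (adjusted p = 0.0599, 0.165 and 0.418). DESeq2 called Bub3 and Mad2l1 lower.

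At anaphase onset 3 of 4 genes fell. Cdc20, which activates the anaphase-promoting complex and is the target of the checkpoint, stood at 107, 85.8 and 86.0 with DMSO against 80.9, 64.6 and 69.7 with STM2457 in XEN (CPM). It stood at 275 and 284 with DMSO against 208 and 203 with STM2457 in TSC, and at 295 and 292 with DMSO against 178 and 184 with STM2457 in EpiSC (CPM). No STM2457 library reached the lowest DMSO library of its line. The fold change was −0.70 ± 0.124 (adjusted p = 0.00902) in EpiSC, a level 1.62-fold lower with STM2457. It was −0.37 ± 0.106 (adjusted p = 0.0619) in XEN and −0.44 ± 0.123 (adjusted p = 0.106) in TSC, short of the threshold in both, and −0.50 ± 0.0682 (adjusted p = 0.000157) on the mean. With the replicate numbers of every line as a block, Cdc20 was called lower in XEN too (−0.37, adjusted p = 0.0017). With a block in XEN only it was also called there (−0.37, adjusted p = 0.000262). Cdc20 shares 53 exonic bases with Elovl1 on the opposite strand, and whether reads were counted by strand was not stated, so reads of the shared bases cannot be assigned. Elovl1 was called higher in XEN (log2 fold change 0.55, adjusted p = 0.0131), the opposite direction to Cdc20.

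Pttg1 (securin), which keeps separase inactive until it is destroyed, stood at 31.0, 30.3 and 23.4 with DMSO against 25.5, 25.0 and 21.5 with STM2457 in XEN, at 110.0 and 128 against 92.6 and 87.0 in TSC, and at 77.3 and 69.3 against 55.2 and 51.9 in EpiSC (CPM). The arms were apart in TSC and EpiSC and overlapped in XEN, where the third DMSO library was low. The mean change was −0.36 ± 0.0755 (adjusted p = 0.00449). Ube2c, the ubiquitin-conjugating enzyme that works with the anaphase-promoting complex, stood at 72.5, 54.9 and 68.7 with DMSO against 61.7, 55.2 and 55.3 with STM2457 in XEN, at 102 and 98.5 against 84.5 and 85.7 in TSC, and at 156 and 169 against 132 and 119 in EpiSC (CPM). The arms overlapped only in XEN, and the mean change was −0.27 ± 0.068 (adjusted p = 0.0149). Espl1 (separase), which Pttg1 holds, had a mean change of −0.12 ± 0.0702 (adjusted p = 0.325).

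**Figure D3:**
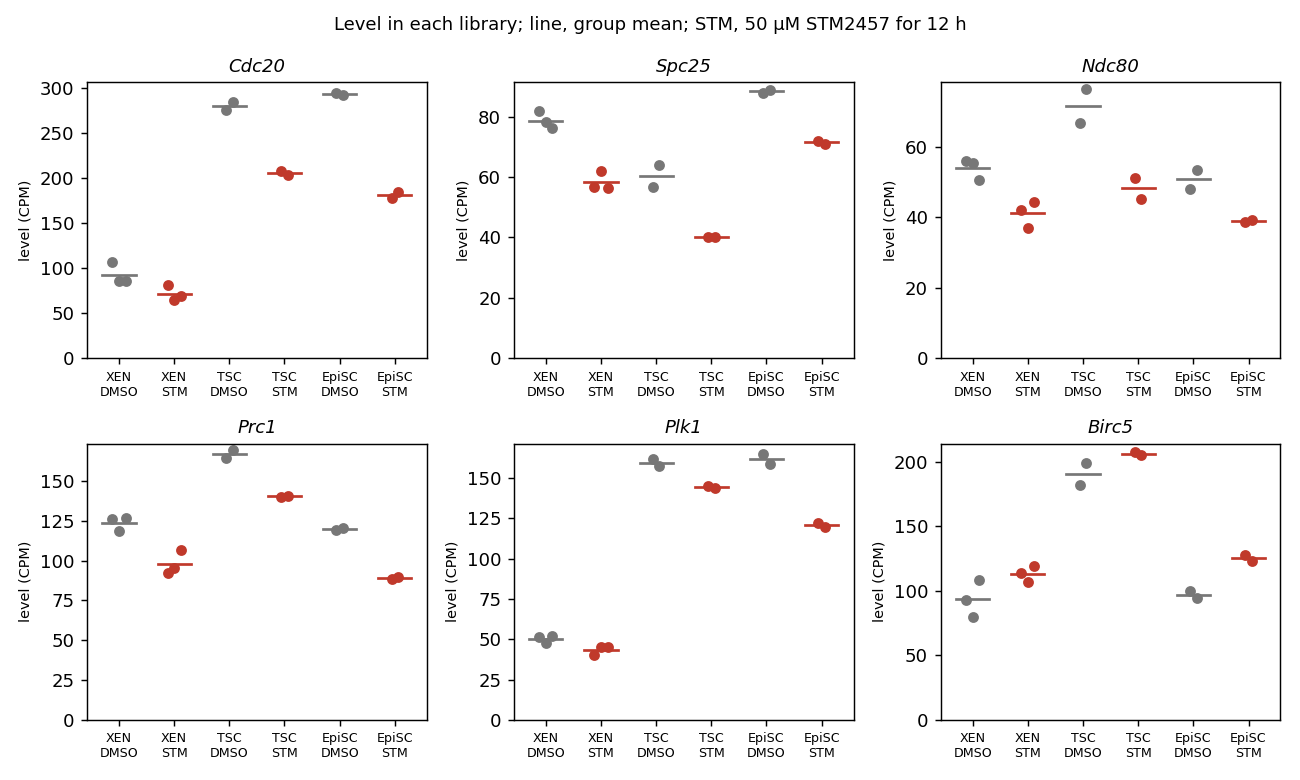
CPM in every library of the members called in a single line and of Birc5, by line and treatment; each point is a library and each short line the mean of its group. Cdc20 in EpiSC lies at 295 and 292 CPM with DMSO and at 178 and 184 CPM with STM2457, while Birc5 lies higher with STM2457 in TSC and EpiSC.

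Of 7 kinetochore and centromere genes 2 fell, and both belong to the Ndc80 complex, the 4-subunit rod of Ndc80, Nuf2, Spc24 and Spc25 that grips spindle microtubules. Spc25 stood at 81.8, 78.0 and 76.2 with DMSO against 56.7, 61.9 and 56.2 with STM2457 in XEN (CPM), at 56.8 and 64.0 with DMSO against 40.2 and 40.2 with STM2457 in TSC, and at 87.7 and 88.9 with DMSO against 72.1 and 70.9 with STM2457 in EpiSC. The arms were apart in all 3 lines. Its change was −0.43 ± 0.0887 (adjusted p = 0.0115) in XEN, −0.59 ± 0.105 (adjusted p = 0.0137) in TSC, −0.30 ± 0.103 (adjusted p = 0.155) in EpiSC and −0.44 ± 0.0572 (adjusted p = 0.000116) on the mean. In XEN the differences within the same-numbered libraries were −0.53, −0.33 and −0.44 on the log2 CPM scale. Ndc80 stood at 55.9, 55.4 and 50.5 with DMSO against 42.1, 36.9 and 44.5 with STM2457 in XEN (CPM), at 66.9 and 76.4 with DMSO against 51.2 and 45.3 with STM2457 in TSC, and at 48.2 and 53.6 with DMSO against 38.8 and 39.3 with STM2457 in EpiSC. Its arms were also apart in all 3 lines. Its change was −0.39 ± 0.106 (adjusted p = 0.0498) in XEN, −0.57 ± 0.121 (adjusted p = 0.0338) in TSC, −0.38 ± 0.122 (adjusted p = 0.136) in EpiSC and −0.45 ± 0.0675 (adjusted p = 0.000402) on the mean.

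The partners of these subunits were not called by the edgeR fit over all libraries without a replicate block. Nuf2, which pairs with Ndc80, stood at 39.0, 37.1 and 46.0 with DMSO against 33.8, 30.9 and 40.2 with STM2457 in XEN, at 53.3 and 56.3 against 53.6 and 55.6 in TSC, and at 53.4 and 50.3 against 64.8 and 63.3 in EpiSC (CPM). Its STM2457 libraries overlapped the DMSO libraries in XEN and TSC and lay above them in EpiSC, with changes of −0.22 ± 0.115 (adjusted p = 0.344), 0.00 ± 0.128 (adjusted p = 1) and 0.30 ± 0.128 (adjusted p = 0.265). With the replicate block Nuf2 was called higher in EpiSC (0.31, adjusted p = 0.0227), and likewise with the block in XEN only (0.30, adjusted p = 0.0077). Spc24, which pairs with Spc25, had changes of 0.11, −0.02 and −0.08 in XEN, TSC and EpiSC. Within libraries, the counts of Ndc80 divided by those of Nuf2 ran from 1.26 to 1.36 in the DMSO libraries of TSC and from 0.815 to 0.954 with STM2457. In EpiSC they ran from 0.902 to 1.07 and from 0.599 to 0.622, and in XEN, where the arms overlapped, from 1.10 to 1.49 and from 1.11 to 1.24. Spc25 divided by Spc24 ran from 2.50 to 3.30 with DMSO and from 1.71 to 2.22 with STM2457 in XEN. The TSC values were 1.07 and 1.24 against 0.767 and 0.789, and the EpiSC values 1.77 and 1.90 against 1.54 and 1.61, so the arms were apart in every line. These pairs were chosen after the values were seen, and the ratios are counts per gene, not copies per cell. Cenpa, the histone variant that marks centromeres, Cenpe, a kinetochore motor, and Cenpf had mean changes of −0.12, 0.00 and 0.04 and were not called.

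**Figure D4:**
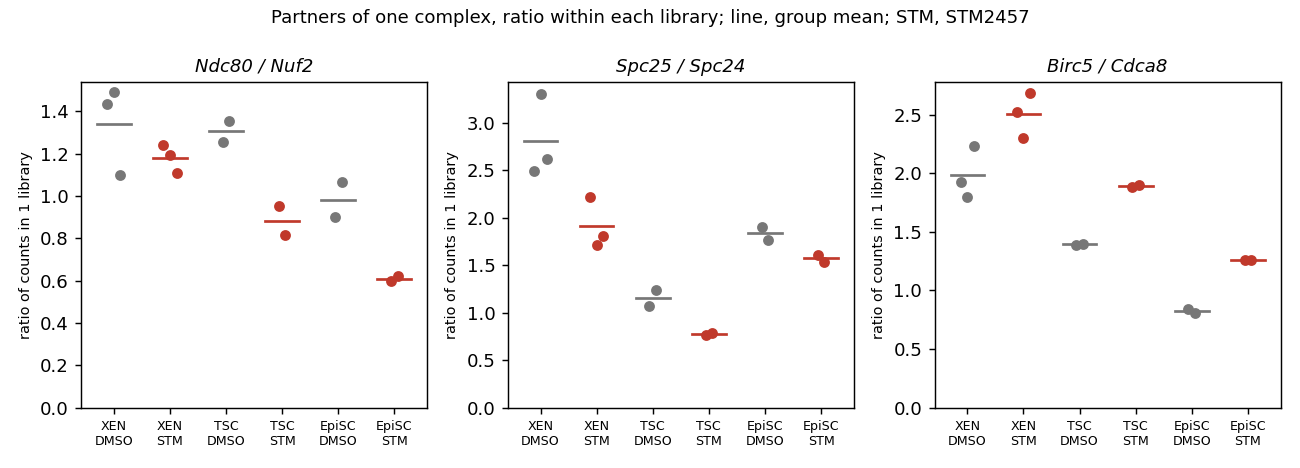
Counts of 1 subunit divided by those of its partner in the same library (vertical axis, ratio from 0) for Ndc80 and Nuf2, Spc25 and Spc24, and Birc5 and Cdca8, by line and treatment; each point is a library and each short line a group mean. Spc25 over Spc24 is lower and Birc5 over Cdca8 higher in every STM2457 library of each line, and Ndc80 over Nuf2 is lower in TSC and EpiSC and overlaps in XEN.

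None of the 6 spindle motors and organisers was called in the mean effect by edgeR. At an unadjusted p under 0.05 there was 1, Kif11, which DESeq2 also called. Kif11 (Eg5), the motor that pushes the spindle poles apart, had a mean change of −0.13 ± 0.0607 (adjusted p = 0.174). Kif2c, Kif18a, Kif4, Tpx2 and Aspm, which shorten, tune and focus spindle microtubules, had mean changes of −0.05, 0.02, −0.03, −0.04 and −0.09. Kif4 is the single X-linked member.

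Of the 6 genes of the central spindle and cytokinesis, Prc1 fell. Prc1, which bundles the antiparallel microtubules of the central spindle, stood at 126, 119 and 127 with DMSO against 92.5, 95.4 and 107 with STM2457 in XEN (CPM), at 164 and 169 with DMSO against 140.3 and 141 with STM2457 in TSC, and at 119 and 121 with DMSO against 88.4 and 89.6 with STM2457 in EpiSC. The arms were apart in every line. Its change was −0.34 ± 0.0847 (adjusted p = 0.0332) in XEN, −0.25 ± 0.1 (adjusted p = 0.279) in TSC, −0.43 ± 0.101 (adjusted p = 0.0393) in EpiSC and −0.34 ± 0.0552 (adjusted p = 0.000734) on the mean. Prc1 shares 911 exonic bases with Rccd1 on the opposite strand, whose DMSO level was 12.5, 19.9 and 22.0 CPM in XEN, TSC and EpiSC and whose mean change was 0.22 (adjusted p = 0.0657). The motors Kif20a and Kif23, which bring the passenger complex and the centralspindlin complex to the midzone, had mean changes of −0.08 and −0.11. Ect2, which activates RhoA at the cleavage site, the ring scaffold Anln and the abscission factor Cep55 had −0.19, −0.17 and −0.07, none of them called by edgeR, while DESeq2 called Ect2 and Anln lower. Top2a, which untangles sister chromatids, had a mean change of −0.18 ± 0.064 (adjusted p = 0.0789) and was called by DESeq2.

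These calls differed in how far they rested on single libraries. Leaving out each of the 14 libraries in turn, Spc25, Cdc20, Ndc80, Prc1, Pttg1, Plk1, Cdc25c and Bub1b stayed called on the mean effect every time. The other 7 lost the call without 4 (Ube2c, adjusted p up to 0.0676), 5 (Cdca8, 0.0722), 6 (Birc5, 0.0879), 8 (Ccna2, 0.0807; Ttk, 0.127), 9 (Ccnb1, 0.115) or 11 (Ccnb2, 0.127) of the 14. In XEN, Spc25 stayed called without each library. Ndc80 lost its XEN call without any 1 of the XEN libraries other than STM2457 replicate 3 (adjusted p up to 0.134), and Prc1 without DMSO replicates 1 and 3 and STM2457 replicates 1 and 2 (up to 0.109). In TSC and EpiSC every single-line call was lost without any 1 of the 4 libraries, with adjusted p of 0.117 to 0.48 in TSC and 0.121 to 0.341 in EpiSC. Scaled to ribosomal protein genes, 4 members were called on the mean effect (0.749% of all genes lower and 6.74% higher): Cdc20 (−0.43, adjusted p = 0.00602), Ndc80 (−0.38, 0.0202) and Spc25 (−0.37, 0.016) lower and Birc5 (0.33, 0.0143) higher. The other 11 kept their sign there without a call.

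In XEN the replicate numbers pair the libraries. The fit with the replicate numbers of every line as a block called 7 members in XEN in place of 3 (5.33% of all genes lower and 7.95% higher). It added Anln (−0.25, adjusted p = 0.0352), Kif23 (−0.30, 0.0114) and Cdc20 as lower and Birc5 as higher (0.28, 0.0174). With a block in XEN only, 9 members were called in XEN (6.83% of all genes lower and 8.95% higher), with Kif11 and Top2a added as lower. Within the 3 numbered XEN pairs, 17 members were lower with STM2457 in every pair (19.7% of all genes) and 5 were higher in every pair (19.2%): Nek2, Aurkb, Incenp, Birc5 and Tpx2. Birc5 differed by 0.29, 0.42 and 0.14 in the 3 pairs on the log2 CPM scale.

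By the fit over all libraries without a replicate block, the size of the STM2457 effect was not shown to differ between lines for any member. With the libraries of EpiSC and TSC alone, 3 members were called between these lines (4.23% of all genes). By edgeR the test of the difference called 0 members in each comparison. The shares of all genes were 0.0109% for EpiSC and XEN, 0.00543% for TSC and XEN and 0.00543% for EpiSC and TSC. In the same order, 2, 1 and 0 members had an unadjusted p under 0.05, without a share of all genes to set beside them. DESeq2 called 0 in each (0.372%, 0.227% and 0.172% of the genes given an adjusted p). The smallest p belonged to Nuf2, whose change was higher in EpiSC than in XEN by 0.53 ± 0.172 (adjusted p = 0.677), and 0.52 ± 0.128 with the replicate block (adjusted p = 0.0431). Incenp differed by −0.29 in the same comparison, and Ttk by −0.35 ± 0.157 between TSC and XEN (adjusted p = 0.976). Summed levels of cell type markers also differed between the arms. In EpiSC the pluripotency markers summed to 1049 and 1106 CPM with DMSO against 878 and 985 CPM with STM2457. Most of that sum was Pou5f1, with group means of 728 against 558 CPM. Otx2 was also lower (log2 fold change −0.33), Nanog, Sox2 and Nodal were nearly level, and Fgf5 was higher (0.75). The differentiated epiblast markers of EpiSC summed to 52.2 and 47.4 CPM against 28.8 and 36.4 CPM. Most of that sum was T (−0.72). Sox1 was also lower, Pax6 was nearly level, and Mixl1 and Gsc were higher. The lower sums thus mainly follow single genes and not each list as a whole. None of these markers was called in EpiSC by edgeR, while DESeq2 called Pou5f1 lower (adjusted p = 0.0292) and Fgf5 higher (0.0149). In TSC the XEN markers summed to 171 and 169 CPM with DMSO and 187 and 189 CPM with STM2457, the fibroblast markers to 14.9 and 16.0 against 20.7 and 18.7 CPM, and the differentiated epiblast markers to 8.87 and 9.64 against 13.0 and 12.8 CPM. On the mean effect the XEN markers Dab2 (0.64, adjusted p = 0.0101) and Foxa2 (0.41, adjusted p = 0.0388) were called higher by edgeR. In group means Dab2 was level in XEN (717 CPM with DMSO against 718 with STM2457). It was low in TSC (0.467 against 1.27) and EpiSC (10.8 against 15.4). Foxa2 stood at 94.0 against 113 CPM in XEN, 2.53 against 4.25 in TSC and 3.07 against 3.58 in EpiSC. The part of these markers in the member values was not tested.

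Among untreated (DMSO) cells, members stood higher in TSC and EpiSC than in XEN relative to the bulk of genes. Between TSC and XEN 35 members were called higher (36.5% of genes) and 3 lower (36.0%), with a median of 0.58. Between EpiSC and XEN 28 were higher (36.6%) and 3 lower (35.1%), with a median of 0.49. Between EpiSC and TSC 6 were higher (27.4%) and 20 lower (27.0%), with a median of −0.24. Scaled to ribosomal protein genes the median of all genes was −1.05, −0.75 and 0.28 in these comparisons, and the members called were 7 higher and 23 lower, 7 and 19, and 9 and 4. On that scale the shares of all genes called were, in the same order, 14.6% higher and 61.0% lower, 18.8% higher and 54.3% lower, and 34.0% higher and 17.0% lower. The members' medians relative to all genes were 0.54, 0.44 and −0.22. The 42 genes took 0.369 to 0.404% of counts in XEN, 0.696 to 0.771% in TSC and 0.608 to 0.680% in EpiSC libraries of both arms. Line, medium and, for EpiSC, genotype cannot be told apart here. XEN libraries also differed from the rest in depth and in their shares of mitochondrial ribosomal RNA and histone RNA. These differences coincide with line, and their part in the member values was not tested. A difference in preparation between XEN and the other libraries cannot be told apart from line either.

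The members differed among themselves in these comparisons. In DMSO libraries Aurkb stood at 57.0, 74.2 and 54.4 in XEN, 229 and 229.9 in TSC and 99.8 and 96.6 in EpiSC (CPM). It was highest in TSC without overlap, with changes of 1.89 ± 0.132 between TSC and XEN and −1.22 ± 0.144 between EpiSC and TSC. Bub1 stood at 84.1, 101 and 81.1 in XEN, 292 and 291 in TSC and 208 and 213 in EpiSC (CPM), 1.72 ± 0.103 between TSC and XEN. Pttg1 had the largest difference between TSC and XEN (2.08 ± 0.127), and Plk1 and Cdc20 the largest between EpiSC and XEN (1.68 ± 0.0926 and 1.66 ± 0.113), with Pttg1 next at 1.38 ± 0.128. Scaled to ribosomal protein genes these changes were 0.98, 0.77 and 0.60 for Pttg1, Aurkb and Bub1 between TSC and XEN, and 0.89, 0.87 and 0.57 for Plk1, Cdc20 and Pttg1 between EpiSC and XEN.

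Kif11 ran the other way. It stood at 299.8, 275 and 282 in XEN, 155 and 155 in TSC and 145 and 148 in EpiSC (CPM) in DMSO libraries, highest in XEN without overlap, at −0.88 ± 0.104 between TSC and XEN and −0.97 ± 0.105 between EpiSC and XEN. Aspm stood at 121, 119 and 142 in XEN, 95.5 and 87.3 in TSC and 117 and 102 in EpiSC (CPM), and was called lower in TSC than in XEN with Spc25 (−0.48 ± 0.139 and −0.38 ± 0.0972). Cep55 stood at 67.7, 76.8 and 70.3 in XEN, 86.7 and 88.2 in TSC and 42.6 and 42.2 in EpiSC (CPM), lowest in EpiSC without overlap, with −0.76 ± 0.11 against XEN and −1.05 ± 0.116 against TSC. Cenpf stood at 201, 245 and 247 in XEN, 248 and 262 in TSC and 189 and 169 in EpiSC (CPM), with −0.37 ± 0.141 between EpiSC and XEN, whose libraries did not overlap. Scaled to ribosomal protein genes Kif11, Aspm and Spc25 were at −1.98, −1.57 and −1.48 between TSC and XEN, and Kif11, Cep55 and Cenpf at −1.77, −1.57 and −1.19 between EpiSC and XEN, with no sign turned.

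Between EpiSC and TSC the members furthest above TSC in EpiSC were Mad2l1, Kif4 and Ube2c. Mad2l1, the checkpoint protein that binds Cdc20, stood at 112, 109.6 and 99.5 in XEN, 117 and 120.4 in TSC and 227 and 219 in EpiSC (CPM) and was highest in EpiSC, 0.91 ± 0.101 above TSC. Kif4 stood at 72.1, 72.4 and 77.8 in XEN, 94.8 and 95.2 in TSC and 175 and 155 in EpiSC (CPM), 0.80 ± 0.109 above TSC, and Ube2c was 0.69 ± 0.123 above TSC. Those furthest below were Aurkb, Cep55 and Birc5 (−0.97 ± 0.125). On the ribosomal protein scale the same 6 genes were at 1.21, 1.09, 0.99, −0.93, −0.75 and −0.68.

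**Figure D5:**
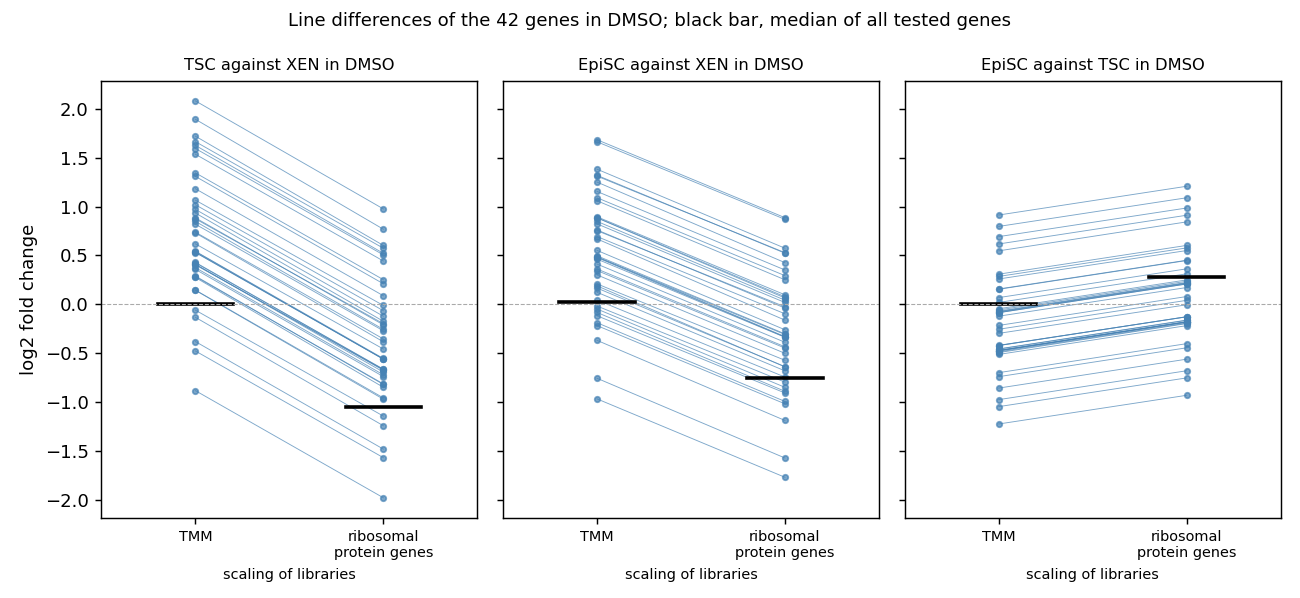
Log2 differences between untreated lines (log2 fold change, vertical axis) for the 42 members in 3 comparisons, scaled by TMM (left) and to ribosomal protein genes (right); a thin line joins the values of a gene and the black bar is the median of all tested genes. The second scale moves that median to −1.05, −0.75 and 0.28, and the members move with it.

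Per kilobase of exon, the median member stood at 15.7 CPM per kb in XEN, 26.8 in TSC and 25.0 in EpiSC in DMSO libraries. In XEN, Top2a and Ccna2 were highest, both at 58.1 CPM per kb, followed by Cdc20 at 49.7. Cdc20 was highest in TSC at 149.8 CPM per kb, before Top2a at 114 and Ccnb2 at 104, and in EpiSC at 157 CPM per kb, before Top2a at 82.1 and Plk1 at 73.6. Kif18a was lowest in each line, at 2.54, 3.37 and 4.11 CPM per kb.

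In transcript structure, members had more exon junctions per kb (median 4.70, against 3.01 over 14312 tested protein-coding genes) and a shorter longest exon (median 789.5 bases, against 1341). Transcript length (2918 against 2965 bases) and the density of GGAC, the core of the m6A sequence motif (3.91 against 4.28 per kb), were closer to other genes. These are descriptions from the GENCODE M21 models, and m6A itself was not measured in these libraries. In 12 members an exon overlapped a gene on the opposite strand.

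The genes that work with the members were described in lists of 17 to 32 genes. Of 17 genes of the anaphase-promoting complex and its regulators, 1 rose and 3 fell on the mean effect: Fbxo5 (Emi1), an inhibitor of the complex, rose (0.38 ± 0.0612, adjusted p = 0.000661), while the subunits Anapc16 (−0.38), Anapc5 (−0.28) and Anapc4 (−0.22) fell. Fbxo5 was also called higher in EpiSC (0.48 ± 0.109, adjusted p = 0.0337). Of 19 cohesin and condensin genes 3 rose and 4 fell. Cdca5 (sororin), which locks cohesin on sister chromatids, rose in every line, by 0.66 ± 0.0905 (adjusted p = 0.000653) in XEN, 0.56 ± 0.104 (adjusted p = 0.0167) in TSC and 0.48 ± 0.104 (adjusted p = 0.0283) in EpiSC. Scaled to ribosomal protein genes, its XEN call held and those in TSC and EpiSC did not, and the calls of Fbxo5 in EpiSC and of Mis12 in XEN were lost too, while all 3 were called higher on the mean effect. Sgo1 (shugoshin), which shields centromeric cohesin, rose on the mean (0.38), and the condensin subunit Ncapg (−0.36) and the cohesin subunit Smc1a (−0.29) fell.

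Of 32 other kinetochore genes 1 rose and 4 fell. Mis12, whose complex holds the Ndc80 complex at the kinetochore, rose in XEN (0.61 ± 0.122, adjusted p = 0.00994) and on the mean (0.37), and Ska2 (−0.21), Mis18a (−0.27) and Cenpt (−0.33) fell on the mean. Of 31 other spindle and cytokinesis genes 2 rose and 6 fell on the mean. Ckap2l (0.37) and Fam83d (0.44) rose, with Fam83d at 0.91 in XEN, and the spindle protein Nusap1 (−0.38) and the chromokinesin Kif22 (−0.32) fell. Of 21 genes of mitotic entry and exit control, Cdca2 (0.33) and the Cdk1-inhibiting kinase Pkmyt1 (0.32) rose and the phosphatase Cdkn3 (−0.28) fell. Over 8 lists of 189 genes, 12 rose and 26 fell on the mean effect (7.78% and 5.62% of all genes), and 12 rose and 4 fell on the ribosomal protein scale (6.74% and 0.749%). In single lines 9 rose and 3 fell in XEN (3.07% and 1.07% of all genes) and 1 rose and 1 fell in TSC (0.836% and 0.130%). In EpiSC 3 rose and none fell (1.28% and 0.402%). A replicate block in XEN only, chosen after the data were seen, called 25 higher and 67 lower on the mean effect (14.9% and 13.8% of all genes). List medians lay between −0.05 and −0.15, beside −0.13 for the 42 members.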

How the data were processed

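Libraries were made from total RNA with a stranded kit, per the labels. The authors deposited unnormalized counts for each gene and library. Per the submitters' processing notes, FastQC, Trim Galore, STAR and featureCounts were used with build GRCm39, with no versions; for the strand setting, nothing is stated. All 14 libraries were fitted in 1 model of 6 groups in edgeR 4.0.16 (R 4.3.3) with TMM scaling, filterByExpr (minimum count 10, minimum total 15) and robust quasi-likelihood tests, two-sided. Calls were made at an adjusted p (Benjamini-Hochberg, 18430 genes) under 0.05. CPM use the TMM-scaled total. Each log2 fold change is given with its SE, computed from F, and log2 CPM had a prior count of 2. DESeq2 1.42.0, scaling to ribosomal protein genes, other filters, replicate blocks, single-line fits and leaving out each library were alternatives.

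The members and lists were chosen with earlier results of these data known. Values in every library were given for members called in a treatment comparison, filled up to 4 by the smallest p for calls in a single line, and for the 3 largest rises and falls between lines. Of other lists, up to 4 called genes each were named. Fit and calls were tried on simulated data with the same spread per gene in every group and no pairing of libraries. That simulation cannot show how the calls behave where spread differs between lines or libraries are paired. Same-numbered XEN libraries deviated together (r = 0.22, 0.38 and 0.34), so the numbers pair them; TSC (−0.003) and EpiSC (−0.012) numbers do not.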

Additional observations from a re-analysis of the deposited data

How the results depend on the processing

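The counts of called members (3 in XEN, 2 in TSC, 3 in EpiSC, 15 on the mean effect) depend on how the spread is estimated and on the scaling. DESeq2 called 5, 10 and 11 members in XEN, TSC and EpiSC. Scaling to ribosomal protein genes called 0 in each line, 4 on the mean effect and 13 between EpiSC and TSC in DMSO, where 26 were called. Without a filter on low counts 1 was called in EpiSC (1.84% of genes). With the libraries of the compared lines alone, 0 were called in XEN, 17 in TSC and 22 in EpiSC, and the difference between EpiSC and TSC called 3. With a replicate block the counts were 7 in XEN, 10 in TSC and 14 in EpiSC, and the difference between EpiSC and XEN called 1, Nuf2. A replicate block in XEN only, the one line where numbers pair the libraries and an alternative added after the data were seen, called 9, 15 and 18 members in the 3 lines, 25 on the mean effect (24 lower and Birc5 higher) and 1 for the difference between EpiSC and XEN. Leaving out each library gave 1 to 3 calls in XEN, 0 in TSC, 0 in EpiSC and 8 to 17 on the mean effect; with 1 library left in an arm, it is assumed to vary like the others. Mean-effect calls of Spc25, Cdc20 and Ndc80 held in 20 of 20 alternatives, those of Ccnb2 in 7. None of the 23 called STM2457 fold changes of members turned its sign in the alternatives run for it. The cause of these moves was not tested. Replicates differed most among XEN libraries. Chi-square per degree of freedom between replicates of an arm was 8.10 to 20.2 for the XEN pairs. The TSC pairs gave 4.66 (DMSO) and 2.10 (STM2457), and the EpiSC pairs 4.30 and 3.68. The fit over all libraries uses a common spread per gene for every line. How far this shifted the calls of single lines, such as those of Spc25, Ndc80 and Prc1 in XEN, was not tested. XEN libraries hold fewer counts than the others, and how far depth limits the calls was not tested. The share of all genes called moved with the settings. In XEN, TSC, EpiSC and on the mean effect it was 4.15%, 0.966%, 1.68% and 13.4% in the reported fits, 12.4%, 7.55%, 9.14% and 27.8% of the genes given an adjusted p with DESeq2, 0.765%, 0.445%, 0.695% and 7.49% on the ribosomal protein scale, 13.3%, 11.0%, 13.2% and 25.6% with the replicate block and 15.8%, 15.4%, 17.2% and 28.7% with the block in XEN only. With the libraries of the compared lines alone it was 0.191%, 30.2% and 29.2% in the 3 lines, and 4.23% for the difference between EpiSC and TSC.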

Other observations

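Genes that control or precede mitosis also held single changes. Of 23 transcription factors and cofactors of cell cycle genes, 1 rose and 3 fell on the mean STM2457 effect (7.78% and 5.62% of all genes). Calls are by edgeR's quasi-likelihood test with Benjamini-Hochberg adjustment. Rb1, the retinoblastoma protein that restrains E2F, fell most. It stood at 28.9 ± 4.14 CPM (SD, n = 3) with DMSO and 13.8 ± 0.637 CPM with STM2457 in XEN, with a log2 fold change of −1.07 ± 0.134 (adjusted p = 0.000298) there and −0.68 ± 0.0813 (adjusted p = 5.33e-05) on the mean. Mybl2 (B-Myb), which activates mitotic genes with the MuvB core, rose in XEN (0.47 ± 0.0896, adjusted p = 0.00702) and on the mean (0.32 ± 0.0582, adjusted p = 0.00169). Lin37, a MuvB subunit, fell by 0.46 and Rbbp4, another, fell by 0.27 on the mean effect. On the ribosomal protein scale, 2 of the 23 rose and 1 fell on the mean effect (6.74% and 0.749% of all genes), and in XEN Rb1 kept its call and Mybl2 lost it.

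Of 33 DNA replication genes 2 rose and 4 fell on the mean effect (7.78% and 5.62% of all genes). Chaf1b (0.41) and Chaf1a (0.28), which load histones behind the replication fork, rose, while the clamp loader subunit Rfc4 (−0.43) and the DNA polymerase subunit Pold1 (−0.27) fell. On the ribosomal protein scale 2 rose and none fell (6.74% and 0.749% of all genes). Of 13 G1 cyclins, their kinases and inhibitors, Ccnd3 (cyclin D3) fell on the mean effect (−0.33 ± 0.0776, adjusted p = 0.00992), a call absent on the ribosomal protein scale, and in XEN the inhibitor Cdkn2d rose (0.57 ± 0.141, adjusted p = 0.0314), a call also lost on that scale. The list medians were −0.07 for DNA replication and −0.12 for the G1 genes, beside −0.13 for the 42 mitosis genes.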
